A study of Mus musculus with 24 samples.

Results

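The transcripts described here are those of the mitochondrial chromosome, chrM, in the 2 Ribo-Zero libraries of the series, 1 from CCE cells and 1 from mouse fetal head (FH). All genes that the GENCODE M1 annotation of mm9 places on chrM were taken, without regard to their values. These are 37 of the 37310 annotated genes, namely 13 mRNA, 22 tRNA and 2 rRNA genes. CCE are feeder-independent mouse ES cells of strain 129/SvEv, here differentiated by withdrawal of LIF and 5 days of 0.266 µM retinoic acid (RA). FH was dissected at 14.5 dpc from FVB/N embryos. In both cases DNase I-treated total RNA (5 µg) went through 1 round of Ribo-Zero depletion of ribosomal RNA, 4 minutes of RNA hydrolysis and random-primed cDNA synthesis, and was sequenced at CeMM, Vienna. The 14 RiboMinus libraries analysed with them list 0 tags on chrM, because the authors removed mitochondrial tags from those libraries before alignment. With 1 library for each tissue there is no spread between replicates, no test was made, and tissue, strain and library cannot be told apart. The intervals given are 95% intervals for counting error only. Since a fetal head holds many cell types, fewer cells with a transcript and less of it in each cell cannot be told apart either.

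Mitochondrial DNA is a small circle that is transcribed from both strands into long precursors. These hold rRNAs and mRNAs separated by tRNAs, and cutting at the tRNAs by RNase P and RNase Z releases the mature RNAs. In mouse, the gene order starts with mt-Tf, mt-Rnr1, mt-Tv and mt-Rnr2, close to the heavy-strand promoter in the control region, a stretch without annotated genes that also holds the light-strand promoter and the heavy-strand origin of replication. The mRNAs code for subunits of respiratory complexes I, III and IV and of ATP synthase. In the annotation 28 of the genes lie on the plus strand of mm9 and 9 on the minus strand. The libraries carry no strand of the RNA: the plus strand took 53.9% of chrM tags in CCE and 54.2% in FH, so RNA of a gene and RNA antisense to it were counted together.

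A second property of this chromosome set what could be measured. The nuclear genome holds many copies of pieces of mitochondrial DNA, and the files list only tags of 51 bases with a single place in mm9. For each start position on chrM, every other place in the genome that matches the 51 bases with at most 3 mismatches was searched. Of 16249 start positions 6999 (43.1%) had no such place and are called unique start positions below, and they hold 98.4% of the chrM tags in CCE and 98.6% in FH. The 5788 start positions (35.6%) with an identical copy elsewhere held 0 tags in both libraries. Outside the rRNA genes, CCE had 0.449 tags per start position where the closest copy differed by 1 base, 0.944 where it differed by 2, 1.87 where it differed by 3 and 9.77 where there was none. FH had 0.353, 0.737, 1.48 and 8.41 tags per start position in these classes. The largest copy lies at chr1:24618368-24623027, matches chrM:6390-11048 and is identical at 4506 start positions. It covers the whole of mt-Co2, mt-Atp8, mt-Atp6, mt-Co3, mt-Nd3 and mt-Nd4l. For these 6 mRNA genes, and for 10 of the 22 tRNA genes, no start position was unique, so a count of 0 says nothing about their RNA.

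The following stretches are shown because the results turn on them. The junction of mt-Rnr2 with mt-Tl1, the junction of mt-Tl1 with mt-Nd1, and the stretch from mt-Nd4 through mt-Th, mt-Ts2 and mt-Tl2 to mt-Nd5 have tRNA bases in capitals. The mt-Co1 stretch is the part of that gene covered by its unique start positions. In the control region stretch, capitals mark the 100-bp window with the lowest ratio of FH to CCE on the chromosome. The sequences are those of the mm9 reference, not of either strain.
mt-Rnr2 to mt-Tl1 (mm9 chrM:2646-2705, plus strand): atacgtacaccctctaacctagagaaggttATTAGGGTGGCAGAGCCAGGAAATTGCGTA
mt-Tl1 to mt-Nd1 (mm9 chrM:2721-2780, plus strand): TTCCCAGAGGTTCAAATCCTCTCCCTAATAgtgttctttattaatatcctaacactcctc
mt-Nd4 to mt-Nd5 (mm9 chrM:11525-11761, plus strand): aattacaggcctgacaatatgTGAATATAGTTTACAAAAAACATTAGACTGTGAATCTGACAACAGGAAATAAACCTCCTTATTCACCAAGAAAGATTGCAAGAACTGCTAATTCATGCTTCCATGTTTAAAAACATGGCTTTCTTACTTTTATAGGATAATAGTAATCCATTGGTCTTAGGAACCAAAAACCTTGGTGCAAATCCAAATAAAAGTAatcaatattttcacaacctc
mt-Co1 (mm9 chrM:5997-6073, plus strand): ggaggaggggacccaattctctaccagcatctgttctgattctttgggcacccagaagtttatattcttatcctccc
control region (mm9 chrM:15993-16234, plus strand): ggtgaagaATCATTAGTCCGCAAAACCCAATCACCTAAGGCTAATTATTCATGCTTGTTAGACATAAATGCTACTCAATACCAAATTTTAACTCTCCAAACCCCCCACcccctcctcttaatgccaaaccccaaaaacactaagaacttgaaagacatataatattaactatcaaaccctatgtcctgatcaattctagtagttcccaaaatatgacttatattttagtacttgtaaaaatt

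The CCE library holds 28708715 unique tags and FH 48426051, of which 2363248 and 2200005 lie on chrM. Per 1000000 unique tags (CPM) this is 82318 in CCE and 45430 in FH, a ratio of FH to CCE of 0.552 (interval 0.551 to 0.553). The ratio has to be read against the nuclear genes of the same libraries. Over 15517 nuclear protein-coding genes with at least 20 tags in 1 library, the median ratio was 0.752 (-0.41 on the log2 scale), and relative to that median the chrM ratio was 0.733. Nuclear exons took 67.2% of the unique tags in CCE and 47.3% in FH. The chrM tags fell on few positions, 11620 distinct combinations of start and strand in CCE and 10645 in FH, or a mean of 203 and 207 tags for each. How many are PCR copies of the same molecule cannot be seen from the files, and the true error is then larger than the counting intervals. As to the labels, the undifferentiated ES cell markers Pou5f1, Nanog and Zfp42 summed to 64.5 RPKM in CCE and 0.0115 in FH, with 0 tags of Pou5f1 and Nanog in FH, so ES cell transcripts were still present in the RA-treated cells. The 7 primitive endoderm markers summed to 460 RPKM in CCE and 133 in FH, of which Sparc alone made up 243 and 105. In FH, 6 of 6 neural, 2 of 2 lens, 3 of 3 muscle, 4 of 4 erythroid and 2 of 2 cartilage markers exceeded 1 RPKM, with sums of 192, 60.6, 134, 1538 and 151 RPKM, against 62.9, 0.468, 5.80, 0.0898 and 9.52 in CCE. Of the neural markers 4 of 6 exceeded 1 RPKM in CCE as well, and Sox2, which ES cells also express, was higher there (42.7 RPKM) than in FH (21.4). The part of these cell types in the mitochondrial values was not tested.

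Most of the listed mitochondrial tags came from the rRNAs. The 2 rRNA genes took 97.8% of the chrM tags in CCE and 98.0% in FH. All mRNA genes together took 1.77% and 1.69%, tRNA genes 0.289% and 0.280%, and bases outside genes 0.125% and 0.0327%. These are shares of the listed tags and not of mitochondrial RNA. No start position was unique in 6 of the 13 mRNA genes and 10 of the 22 tRNA genes. In mt-Co1 1.75% were unique, against 100% in mt-Rnr1 and 68.1% in mt-Rnr2, so the mRNA share is too low by an unknown amount. Among the listed tags, those of mitochondrial rRNA thus outnumbered those of all other chrM transcripts together after ribosomal RNA depletion. The study lists more rRNA tags, from fewer reads in all, for this CCE library than for FH. Those tags matched cytoplasmic rRNA and were set aside before alignment. How far depletion had removed mitochondrial rRNA in each library is not known from these data, and its part in the ratios of FH to CCE was not tested. mt-Rnr2 (chrM:1094-2675), the RNA of the large mitochondrial ribosomal subunit, had 2046565 tags or 86.6% of the chrM tags in CCE (86.6 to 86.6) and 1968616 tags or 89.5% in FH (89.4 to 89.5). mt-Rnr1 (chrM:70-1024), the RNA of the small subunit, had 265049 tags or 11.2% in CCE (11.2 to 11.3) and 187300 tags or 8.51% in FH (8.48 to 8.55). Per unique start position, mt-Rnr2 stood 6.73 times above mt-Rnr1 in CCE (6.70 to 6.76) and 9.18 times above it in FH (9.14 to 9.23). The ratio of FH to CCE in CPM was 0.570 (0.569 to 0.571) for mt-Rnr2 and 0.419 (0.416 to 0.421) for mt-Rnr1.

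Coverage within the rRNAs was uneven in a similar way in both libraries. The 5 100-bp windows with the most tags all lay in mt-Rnr2 and were the same in CCE and FH, with 51.3% and 53.5% of the chrM tags. The window chrM:1901-2000 was the highest in both, with 305790 tags (12.9%) in CCE and 282527 (12.8%) in FH. Next in CCE came chrM:1201-1300 with 258831 tags and chrM:1301-1400 with 236880, whereas in FH chrM:2301-2400 with 244319 tags came before chrM:1201-1300 with 227719. The last of the 5 was chrM:2401-2500 with 181797 tags in CCE and 205441 in FH. These counts do not allow for windows with fewer unique start positions. Per unique start position chrM:1901-2000 was again the highest, with 3058 tags in CCE and 2825 in FH, but the order below it differed. Next came chrM:1801-1900 in CCE, with a mean of 2729 tags over 42 unique start positions (2350 in FH), and chrM:2401-2500 in FH, with a mean of 2636 (2320 in CCE). Among windows wholly inside mt-Rnr1, the deepest was nearest its 5′ end, with 62251 tags in CCE and 49143 in FH at chrM:101-200. The shallowest was nearest its 3′ end, with 1912 and 1429 at chrM:901-1000. The 100 most frequent combinations of start and strand held 31.4% of the chrM tags in CCE and 32.6% in FH.

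**Figure D1:**
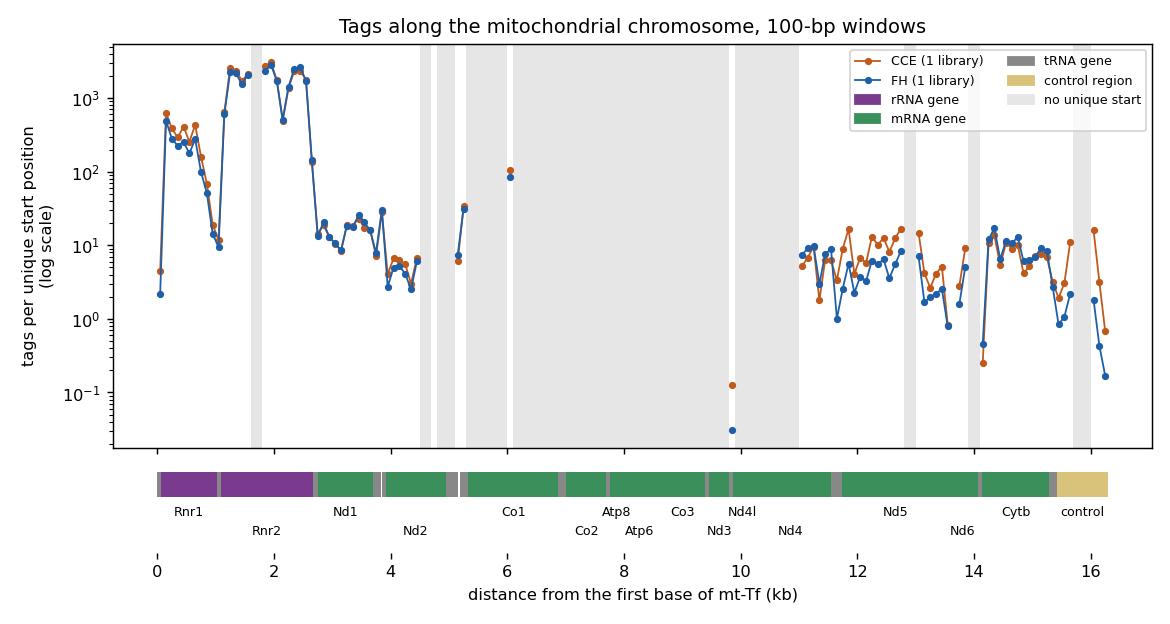
Tags per unique start position (log scale) in 100-bp windows with at least 10 unique start positions, against distance in kb from the first base of mt-Tf, not scaled to library size, for the CCE library and the FH library, with the genes drawn below and windows without a unique start in grey. The curves run together over mt-Rnr2, mt-Nd1 and mt-Cytb and part over mt-Nd5 and the control region, where FH lies lower.

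Levels were compared between genes as RPKM, tags per kb and per 1000000 unique tags. Both the tags and the kb of chrM genes were counted at unique start positions only. The tag counts printed beside these values cover all start positions of a gene, unless unique ones are named. On the scale of unique start positions the order of the 3 highest genes was the same in both libraries. mt-Rnr2 had 65051 RPKM in CCE and 37186 in FH, mt-Rnr1 9667 and 4050, and mt-Co1 3705 and 1751. Of 22367 nuclear protein-coding genes, with the kb counted over all exon bases, 0 had a higher RPKM than either rRNA and 1 had a higher RPKM than mt-Co1, and the median nuclear gene had 1.14 RPKM in CCE and 1.43 in FH. The value of mt-Co1 rests on 27 start positions (chrM:5997-6073), which held 2872 tags in CCE and 2290 in FH. Over its whole length mt-Co1 had 117 RPKM in CCE and 55.0 in FH, below the 558 and 344 RPKM of mt-Nd1, so its place in the order depends on this stretch. The whole-length value is too low, because 1.75% of the start positions of mt-Co1 are unique, against 100% of those of mt-Nd1.

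The annotation holds 7 mRNA genes of complex I, NADH dehydrogenase, of which mt-Nd3 and mt-Nd4l could not be measured. mt-Nd1 (chrM:2751-3707) was unique over all of its 957 start positions. It had 15343 tags in CCE (0.649% of chrM tags, 0.639 to 0.660) and 15948 in FH (0.725%, 0.714 to 0.736), or 558 and 344 RPKM, and a ratio of FH to CCE of 0.616 (0.603 to 0.630). mt-Nd2 (chrM:3914-4951) had 3127 tags in CCE (0.132%, 0.128 to 0.137) and 2470 in FH (0.112%, 0.108 to 0.117), with a ratio of 0.468 (0.444 to 0.494). Its RPKM per kb of unique start positions was 187 and 88.3. In CCE mt-Nd1 thus stood 2.99 times above its neighbour mt-Nd2 and in FH 3.90 times, with intervals that did not overlap (2.87 to 3.11 and 3.73 to 4.07).

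mt-Nd4 (chrM:10167-11544) is unique only in its 3′ part, over 498 start positions. It had 3044 tags in CCE (0.129%, 0.124 to 0.133) and 3786 in FH (0.172%, 0.167 to 0.178), or 213 and 157 RPKM, and its ratio of 0.737 (0.703 to 0.774) was the highest among the mRNAs. mt-Nd5 (chrM:11742-13565), separated from mt-Nd4 by 3 tRNA genes, had 9251 tags in CCE (0.391%, 0.384 to 0.399) and 4314 in FH (0.196%, 0.190 to 0.202), or 307 and 84.8 RPKM. Its ratio of 0.276 (0.267 to 0.287) was the lowest among the mRNAs. mt-Nd5 was higher than mt-Nd4 in CCE, at 1.44 times its level per unique start position from 9067 and 3040 tags, and lower than mt-Nd4 in FH, at 0.541 times (0.517 to 0.565). This comparison lies within a library and does not depend on how the libraries are scaled. mt-Nd6 (chrM:13552-14070), the only mRNA gene on the minus strand, had 694 tags in CCE (0.0294%, 0.0272 to 0.0316) and 392 in FH (0.0178%, 0.0161 to 0.0197). Its RPKM was 138 and 46.6 and its ratio 0.335 (0.295 to 0.380). It overlaps the 3′ end of mt-Nd5, and because strand is unknown its tags may come from RNA of either strand.

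mt-Cytb (chrM:14145-15288), the subunit of complex III, follows mt-Nd6 and did not share its low ratio. It had 5230 tags in CCE (0.221%, 0.215 to 0.227) and 6201 in FH (0.282%, 0.275 to 0.289), or 268 and 190 RPKM, with a ratio of 0.703 (0.677 to 0.729). Relative to mt-Nd4 its level was 1.26 in CCE and 1.21 in FH, whereas relative to mt-Nd5 it was 0.875 in CCE and 2.23 in FH. Of complex IV, cytochrome c oxidase, mt-Co1 (chrM:5328-6872) had 5186 tags in CCE (0.219%, 0.214 to 0.225) and 4118 in FH (0.187%, 0.182 to 0.193), including tags whose closest copy has mismatches. Its ratio was 0.471 (0.452 to 0.491). mt-Co2, mt-Co3 and the ATP synthase genes mt-Atp8 and mt-Atp6 are listed at 0 tags, as are mt-Nd3 and mt-Nd4l, with no unique start position.

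**Figure D2:**
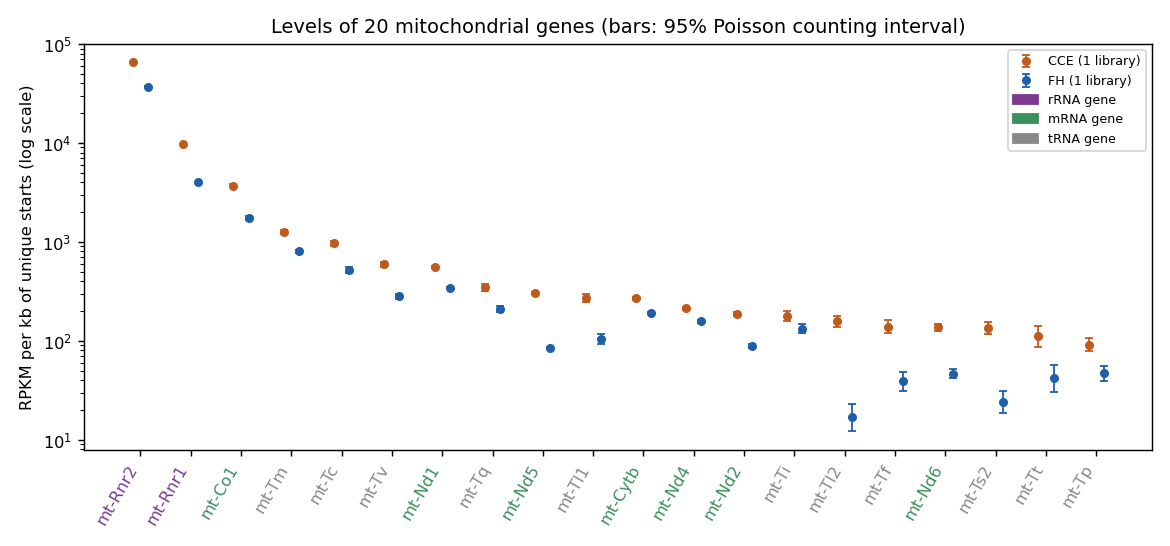
RPKM per kb of unique start positions (log scale) of the 20 mitochondrial genes with at least 20 tags in 1 library, ordered by their level in CCE, with 95% Poisson counting intervals. Every gene lies lower in FH than in CCE, by least for mt-Ti, mt-Nd4 and mt-Cytb and by most for mt-Tl2 and mt-Ts2.

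Of the 22 tRNA genes, 8 had 0 tags in both libraries, all without a unique start position, and 12 had at least 1 unique start position. A tag was assigned by its middle base, so tags of these short genes often reach into a neighbour. In CCE, RPKM per kb of unique start positions was highest for mt-Tm (1257), mt-Tc (966) and mt-Tv (593), the tRNAs of methionine, cysteine and valine. The same 3 were highest in FH, at 800, 523 and 281. Lowest in CCE were mt-Tr (4.35, 4 tags), mt-Tp (91.6) and mt-Tt (111), and in FH mt-Tr (0.645, 1 tag), mt-Tl2 (16.9) and mt-Ts2 (24.3). mt-Tr, with 32 unique start positions between genes that could not be measured, was thus the only tRNA with unique positions and almost no tags. These positions lie inside the stretch matched by the chromosome 1 copy. Uniqueness was searched in mm9 and not in the sequence of either strain, so the count need not mean that this RNA was nearly absent. The ratio of FH to CCE ran from 0.109 (0.0768 to 0.151) for mt-Tl2 and 0.179 (0.132 to 0.240) for mt-Ts2, the pair before mt-Nd5, to 0.747 (0.633 to 0.884) for mt-Ti. These ratios depend on how tags are assigned. With only tags wholly inside the gene, mt-Tl2 had a ratio of 0.198 (0.102 to 0.361) from 45 tags in CCE and 15 in FH, and mt-Ts2 0.152 (0.0705 to 0.299) from 43 and 11. The highest was then mt-Tq with 0.784 (0.686 to 0.898), and mt-Tt, with 2 and 3 such tags, could not be compared.

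Of the 37 genes, 20 had at least 20 tags in 1 library, 2 rRNA, 7 mRNA and 11 tRNA genes. FH was below 0.5 of CCE in 11 of these 20 (55.0%) and above 2 times CCE in 0 of 20. With tags wholly inside the gene 8 were below 0.5, as mt-Tl1 (0.546) and mt-Tv (0.504) were then above it and mt-Tt had too few tags. Among all 18646 genes of the annotation with at least 20 tags in 1 library, FH was below 0.5 of CCE in 27.9% and above 2 times CCE in 22.3%. After division by the nuclear median ratio, 5 of the 20 genes were below 0.5, against 16.3% of all genes, and 27.1% of all genes were above 2. These 5 were mt-Tf, mt-Ts2, mt-Tl2, mt-Nd5 and mt-Nd6. In CPM, 20 of 20 ratios were below 1, with a median of 0.472. The median over nuclear protein-coding genes, 0.752, was also below 1, and the share of all genes below 1 was not counted.

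The ratio varied along the chromosome. In 100-bp windows it was 0.366 to 0.468 between chrM:101-200 and chrM:901-1000 in mt-Rnr1, and from 0.522 to 0.670 over the windows from chrM:1101-1200 to chrM:2601-2700 in mt-Rnr2 that hold a unique start position, apart from chrM:1801-1900 with 0.509. In mt-Nd1 it stayed between 0.560 and 0.695 from chrM:2801-2900 to chrM:3601-3700, after 0.553 at chrM:2701-2800, and over mt-Tq and mt-Tm (chrM:3801-3900) it was 0.643 (0.611 to 0.677). From the next window it was lower, 0.399 (0.341 to 0.466) at the start of mt-Nd2 (chrM:3901-4000), 0.446 at chrM:4001-4100, 0.498 at chrM:4101-4200 and 0.438 at chrM:4201-4300. Further on it held no such level, with 0.534 at chrM:4401-4500, 0.631 (0.439 to 0.907) at chrM:4701-4800, 0.252 (0.156 to 0.397) at chrM:4901-5000 and 0.722 (0.607 to 0.859) at chrM:5101-5200. At the 3′ end of mt-Nd4 (chrM:11501-11600) the ratio was 0.837 (0.698 to 1.01), from 206 tags in CCE and 291 in FH. In the next window (chrM:11601-11700), which holds mt-Ts2, it was 0.184 (0.139 to 0.242), from 225 and 70 tags. The tRNA stretch whose sequence is printed above lies across these windows and the start of the next. The ratio then stayed between 0.168 and 0.438 in all windows with at least 20 tags from there to chrM:13401-13500. At the end of mt-Nd5 (chrM:13501-13600) it was 0.563 (0.352 to 0.901), from 40 and 38 tags. Over mt-Nd6 it was 0.314 at chrM:13601-13700, 0.337 at chrM:13701-13800, 0.319 at chrM:13801-13900 and 0.169 (0.0559 to 0.434) at chrM:14001-14100. It was 0.907 (0.474 to 1.78) at chrM:14101-14200, from 17 and 26 tags, and between 0.580 and 0.859 in the mt-Cytb windows from chrM:14201-14300 to chrM:15201-15300. Of 109 windows with at least 20 tags in 1 library, 55 were below 0.5 and 0 above 1, and 33 were below 0.5 relative to the nuclear median. Windows of nuclear genes were not counted.

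**Figure D3:**
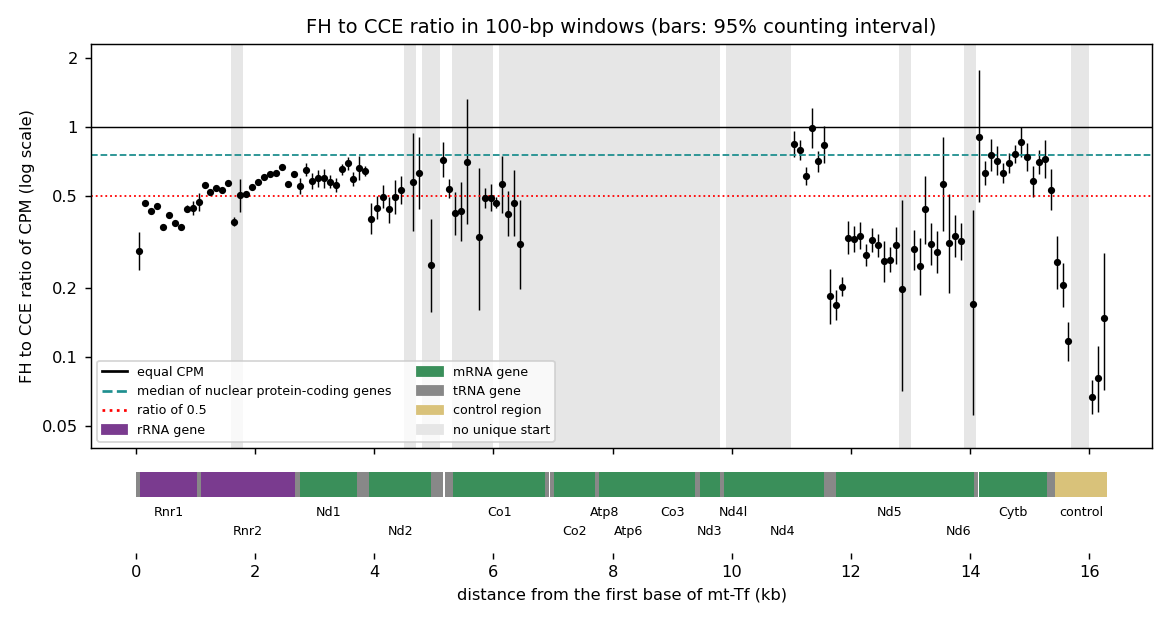
Ratio of FH to CCE in CPM (log scale) in 100-bp windows with at least 20 tags in 1 library, with 95% counting intervals, against distance in kb from the first base of mt-Tf. The ratio lies near the nuclear median of 0.752 over mt-Nd4 and mt-Cytb, below 0.5 over most of mt-Nd5 and lowest, at 0.0671, in the control region.

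The control region (chrM:15423-16299) was also far lower in FH, with a ratio whose interval overlapped that of mt-Tl2. It had 2796 tags in CCE (0.118% of chrM tags, 0.114 to 0.123) and 504 in FH (0.0229%, 0.0210 to 0.0250), a ratio of 0.107 (0.0970 to 0.118), or 0.142 relative to the nuclear median. Per unique start position its level was 0.740 of that of mt-Cytb, the nearest mRNA gene, in CCE (0.706 to 0.775) and 0.112 in FH (0.102 to 0.123). The part next to mt-Tp, with 197 unique start positions from chrM:15423 to chrM:15619, had 890 tags in CCE and 258 in FH, a ratio of 0.172 (0.149 to 0.198). The part whose sequence is printed above, with 192 unique start positions from chrM:15993 to chrM:16184, had 1655 and 196 tags, a ratio of 0.0702 (0.0602 to 0.0815). Its window chrM:16001-16100 had 1334 tags in CCE and 151 in FH. Towards mt-Tf, the last 62 unique start positions had 39 and 10 tags. The lowest counts among windows in which every start position is unique were also here in FH, with 43 tags at chrM:16101-16200, 84 at chrM:15401-15500 and 107 at chrM:15501-15600, followed by chrM:11901-12000 in mt-Nd5 with 227 and chrM:4301-4400 in mt-Nd2 with 251. In CCE the lowest were chrM:15401-15500 with 192 tags, chrM:4301-4400 with 300, chrM:15501-15600 with 308, chrM:16101-16200 with 316 and chrM:3901-4000 with 406. The other stretch without a gene, the light-strand origin of replication between mt-Tn and mt-Tc (chrM:5160-5191), had 155 tags in CCE and 213 in FH, a ratio of 0.815 (0.659 to 1.01).

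Tags that cover a junction of 2 genes come from molecules that hold both genes. Of 36 junctions of neighbouring genes, 11 had enough unique start positions, at least 10 that span it by 10 bases on each side and 10 in each 100-base flank. Tags per spanning start position were divided by the mean of both flanks. A flank is longer than a tRNA gene and so can reach into the gene beyond it, and the deeper flank sets most of the mean. The median over the 11 junctions was 0.0645 in CCE and 0.0175 in FH, and 9 of 11 junctions had the higher value in CCE. At the end of mt-Rnr2, with the sequence printed above, 95 tags in CCE and 45 in FH spanned into mt-Tl1, or 0.0143 and 0.00631 of the flanks. mt-Rnr1 and mt-Tv were joined by 10 tags in CCE (0.0145) and by 0 tags in FH, where a count of 0 allows up to 3 tags. The junction of mt-Tf with mt-Rnr1 had values of 0.0103 in CCE and 0.00340 in FH. In CCE 3.50 tags per start position spanned it, against 3.89 in the mt-Tf flank and 676 in the mt-Rnr1 flank. In FH these were 1.03, 1.56 and 605. A low value beside an rRNA thus does not show how completely the RNAs were separated. The junction of mt-Tv with mt-Rnr2 had 0.0314 in CCE and 0.00389 in FH, and that of mt-Tm with mt-Nd2 0.0555 and 0.0175.

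Some of the other junctions were spanned more often relative to their flanks. mt-Tl1, the tRNA of leucine that follows mt-Rnr2, was joined to mt-Nd1 by 290 tags in CCE and 132 in FH, or 0.565 and 0.237 of the flanks. Its 2 sides differed in that fewer tags joined it to the rRNA than to the mRNA, although the rRNA flank was the deeper of these, with 406 and 439 tags per start position against 23.7 and 28.2 in the mRNA flank. mt-Tl2 was joined to mt-Nd5 by 212 tags in CCE and 35 in FH. Per spanning start position these are 6.62 and 1.09 tags, and in FH 0.372 of the flanks, a lower part than in CCE, where the flanks had 1.81 and 15.9 tags per start position. mt-Ti and mt-Tq, which overlap on opposite strands, were joined by 125 tags in CCE (0.738) and 121 in FH (0.618). The junctions with a higher value in FH were mt-Ts2 with mt-Tl2, at 0.257 in CCE from 39 tags and 0.472 in FH from 13, and mt-Nd1 with mt-Ti, at 0.0711 from 25 tags and 0.0901 from 30. The remaining junction, mt-Tq with mt-Tm, had 0.0645 in CCE and 0.0174 in FH.

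The orientation of tags at gene ends was counted as a further measure, which need not follow that of the junctions. Each tag is an end of a longer cDNA fragment, so a tag within the first or last 100 bases of a gene that points out of the gene belongs to a fragment that reaches past the gene end, unless the fragment is shorter than 100 bases. Of the 30 ends of rRNA and mRNA genes, 10 had at least 20 tags in this stretch at unique start positions in both libraries. The outward share was higher in CCE at 10 of 10 ends, with intervals that did not overlap at 8, and the median was 19.1% in CCE and 8.17% in FH. With ends of 150 bases, chosen after the data were seen, the medians lay closer, at 33.1% and 27.8%, and 11 of 12 ends were higher in CCE. At the start of mt-Nd1 it was 21.2% in CCE (18.9 to 23.6) and 8.66% in FH (7.25 to 10.3), and at its end 26.3% (23.7 to 29.1) and 12.0% (10.0 to 14.3), although the junction there with mt-Ti had the higher spanning value in FH. At the end of mt-Nd4, 121 of 398 tags in CCE (25.9 to 35.2%) and 66 of 470 in FH (11.0 to 17.5%) pointed outward, and at the end of mt-Cytb, beside mt-Tt, 25.4% (19.3 to 32.3) and 8.00% (4.81 to 12.3). mt-Nd2 had 18.6% and 8.33% at its start, and mt-Nd5 19.5% and 10.6%.

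The rRNAs had far lower outward shares. mt-Rnr2 had 0.541% in CCE (0.429 to 0.674) and 0.306% in FH (0.226 to 0.405) at its start, and 0.188% (0.107 to 0.305) and 0.108% (0.0520 to 0.199) at its end. mt-Rnr1 had 6.50% (6.24 to 6.77) and 2.44% (2.27 to 2.62) at its start, and 3.62% (2.55 to 4.98) and 1.79% (1.00 to 2.93) at its end. The measure depends on fragment length. The study's methods describe library fragments longer than these gene ends, but whether that size includes adapters is not given in the sources used here, and the distribution in each library is not in the files. Of the tags of mt-Tm, which is 69 bases long, 2378 of 2490 in CCE and 2629 of 2673 in FH lay wholly inside it. The plus strand took 49.7% and 48.8% of the tags of mt-Tm, so fragments shorter than 100 bases may be present. Along mt-Rnr1 the share of plus-strand tags, which at its start are the inward ones, was 80.5% in CCE and 83.7% in FH at chrM:101-200, 70.5% and 71.5% at chrM:201-300, and 24.3% and 17.5% at chrM:301-400, and it was above 50% again at chrM:401-500 (57.3% and 58.7%). Whether fragment length took part in the outward shares was not tested.

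**Figure D4:**
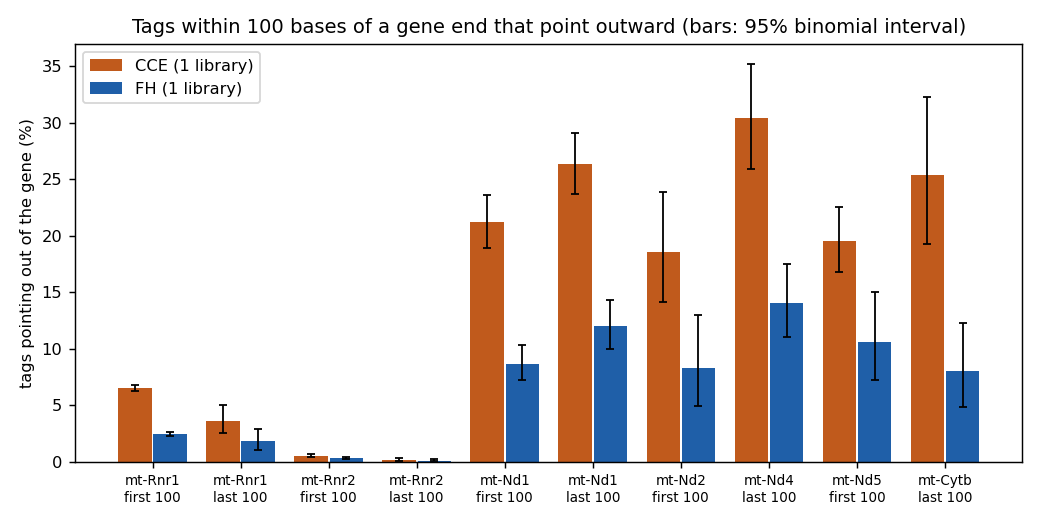
Percent of tags wholly within the first or last 100 bases of a gene that point out of it, for the 10 gene ends with at least 20 tags in both libraries, with exact 95% binomial intervals. CCE is higher at each end, and both libraries are lowest at the ends of mt-Rnr2 and highest at the end of mt-Nd4.

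Mitochondrial RNA is made, processed and degraded by proteins of nuclear genes, and their exonic tags were counted in the same libraries. Of 46 genes of mitochondrial DNA maintenance, transcription and RNA processing, all with at least 20 tags in 1 library, FH was below 0.5 of CCE in 19 (41.3%) and above 2 times CCE in 0, against 27.9% and 22.3% of all genes. The median ratio was 0.522, or 0.693 relative to the nuclear median of 0.752, and after that division 4 genes (8.70%) were below 0.5, a lower share than the 16.3% of all genes. Polg, the catalytic subunit of the mitochondrial DNA polymerase, had 26.5 RPKM in CCE and 7.05 in FH (ratio 0.266, 0.253 to 0.280). Mgme1, a nuclease of mitochondrial DNA, had 10.1 and 2.58 RPKM (0.256), and Primpol, a primase and polymerase, 3.82 and 1.02 (0.269). Tbrg4, of the FASTK family of mitochondrial RNA-binding proteins, had 11.1 and 4.02 (0.362). These 4 were the genes below 0.5 relative to the nuclear median.

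The other 15 below 0.5 in CPM had roles throughout the pathway. For transcription they were Tfam (1779 and 1229 tags, ratio 0.410), an activator that also packages mitochondrial DNA, and the elongation factor Tefm (0.495). For cutting and degradation of RNA they were Trmt10c (0.462) and Hsd17b10 (0.498), subunits of mitochondrial RNase P, and Pnpt1 (0.437) and Supv3l1 (0.485), which degrade RNA together. Grsf1 (0.407), Ptcd2 (0.472) and Fastkd3 (0.473) act on mitochondrial RNA, Gtpbp3 (0.386), Pus1 (0.389), Tfb1m (0.443) and Mrm1 (0.470) modify tRNA or rRNA, and Top1mt (0.417) and Ssbp1 (0.495) act on mitochondrial DNA. Other genes of the pathway stood nearer to equal CPM, among them the RNA polymerase Polrmt (4.71 and 3.84 RPKM, ratio 0.816, 0.736 to 0.905), the mRNA-stabilising Lrpprc (8.76 and 6.79, 0.775) and Elac2, the RNase Z (6.86 and 5.43, 0.792). The highest ratio was that of the tRNA-modifying Trmu (1.73 and 2.44 RPKM, 1.41, 1.20 to 1.68).

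Of 15 nuclear genes of mitochondrial membranes and matrix, used here as markers of mitochondrial mass, 9 were below 0.5 and 0 above 2, against 27.9% and 22.3% of all genes, with a median ratio of 0.433, or 0.576 relative to the nuclear median. They were the outer-membrane channels Vdac1 (36.5 RPKM in CCE and 12.1 in FH, ratio 0.332), Vdac2 (0.433) and Vdac3 (0.345), the import receptors Tomm20 (0.409) and Tomm70a (0.381), the chaperones Hspd1 (0.295) and Hspa9 (44.2 and 14.8 RPKM, 0.334), the ADP/ATP carrier Slc25a4 (187 and 84.4 RPKM, 0.452) and the prohibitin Phb2 (77.4 and 32.9 RPKM, 0.425). After division by the nuclear median, Hspd1, Vdac1, Hspa9 and Vdac3 (26.7%) were below 0.5, against 16.3% of all genes. Citrate synthase, Cs, had 32.6 and 18.8 RPKM (0.578), and the other prohibitin, Phb, had the highest ratio of the list (2.24 and 2.47 RPKM, 1.11, 0.921 to 1.33). Copies of these nuclear genes elsewhere in the genome were not searched, so levels of genes with many processed copies may be too low. Whether the ratios of these genes and of the mitochondrial transcripts are related was not tested.

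**Figure D5:**
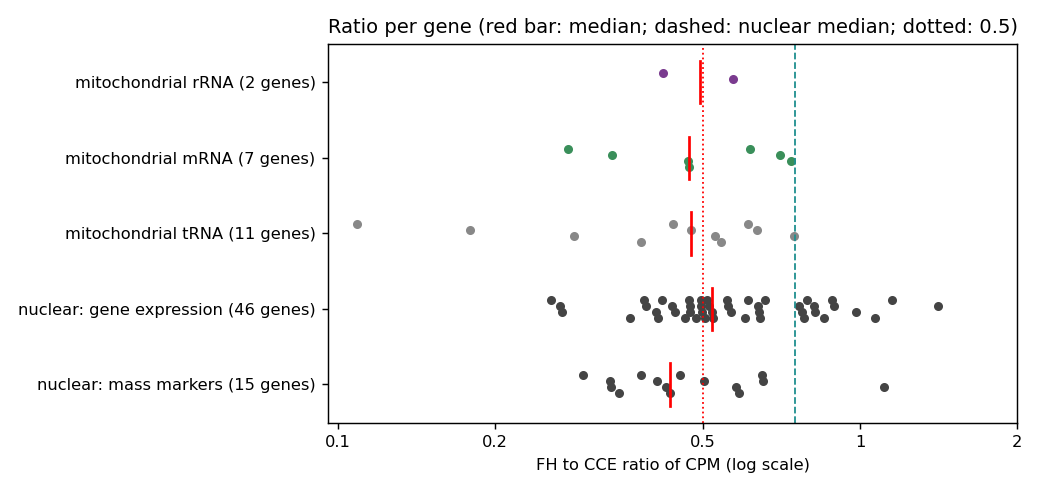
Ratio of FH to CCE in CPM (log scale) for each mitochondrial rRNA, mRNA and tRNA gene and each nuclear gene of the 2 lists with at least 20 tags in 1 library, with the median of each set as a red bar. The medians of all 5 sets lie below the nuclear median of 0.752, and the lowest single values are those of 2 mitochondrial tRNAs.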

How the data were processed

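Each deposited file lists the unique tags of a library, 1 line per tag, with its chromosome, start, end and strand. These deposited values are positions and not levels. The authors aligned 51-base tags to mm9 with Bowtie, allowing 3 mismatches, after removal of tags that matched cytoplasmic rRNA, and kept tags that matched only once. The score deposited by the authors is constant in each file and was not used.

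Tags were assigned to genes and windows by their middle base, over the NCBIM37 genome (mm9) and the GENCODE M1 annotation. All 22 chromosome names matched, and no tag lay beyond the reference length. Counts per 1000000 unique tags (CPM), RPKM, exact Poisson and binomial 95% intervals, and ratios with exact conditional intervals were computed in Python 3.11.15 with numpy 2.4.6 and scipy 1.17.1. No pseudocount was used, and ratios are given for genes and windows with at least 20 tags in 1 library. Other places of each 51-base stretch were found by a 12-base seed search on both strands, tested on simulated data. The members and lists were chosen with earlier results of these data known. The 5 lowest windows were taken among those with all start positions unique, a limit set after the data were seen, as was the measure of outward tags. Of the listed nuclear genes, Suv3 was not matched by that name, and 46 and 15 genes were found under current or older symbols. Levels of mRNA and rRNA genes are given in full, tRNA genes by range with the 3 highest and 3 lowest, and nuclear genes of the lists where FH was below 0.5 or above 2, with others (Polrmt, Lrpprc, Elac2, Trmu, Cs and Phb) chosen after their values were seen.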

Additional observations from a re-analysis of the deposited data

Results flagged for a closer look

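The RiboMinus libraries, which list no tag on chrM, were not used in any comparison above. Within the chromosome 1 copy of chrM (chr1:24618368-24623027) they list 6 tags in all, in 4 of 14 libraries. The copy is identical to chrM at 4506 of its 4577 matched start positions. The Ribo-Zero libraries list 20 tags there in CCE and 12 in FH.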

How the results depend on the processing

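With tags wholly inside the gene, 19 of 19 gene ratios of FH to CCE with at least 20 tags in 1 library were below 1. The nuclear median ratio of 0.752 was below 1 as well. The share of unique tags on chrM was 8.23% in CCE and 4.54% in FH. It became 10.9% in CCE and 8.76% in FH when only tags in nuclear exons or on chrM were counted. On that scale the 2 libraries lay closer together. The rRNA genes took 97.9% and 98.1% of chrM tags at unique start positions, and 38.3% in CCE and 40.8% in FH when tags with the same start and strand were counted once. For values that moved without a reason given here, the cause was not tested. The ratio of all chrM tags was 0.531 in CPM outside chrM and 0.733 relative to the nuclear median. The number of chrM genes below 0.5 was 5 relative to the nuclear median. Counting each position once gave 0.446 and 19 for these values, but they measure how many positions were hit and no chrM level. The positions on chrM numbered 11620 in CCE and 10645 in FH, while all positions numbered 14747865 and 30300144. A chrM position held a mean of 203 and 207 tags, set mostly by the rRNA genes. Among all genes, 3043 rather than 5204 were below 0.5 relative to the nuclear median, and 2728 or 7706 rather than 4156 were above 2 with a minimum of 100 tags or 1 tag. With gene ends of 150 bases the median outward share was 33.1% in CCE and 27.8% in FH, higher in CCE at 11 of 12 ends. The exception was the end of mt-Nd5, and with 75 bases it was the end of mt-Rnr1 (9 of 10 ends higher in CCE). Both widths were chosen after the data were seen. Windows of 50 or 200 bp and junctions spanned by 5 or 15 bases gave values close to those reported. No paired analysis was possible because each tissue has 1 Ribo-Zero library and no test was made. With no replicates, differences between tissues cannot be separated from differences between libraries.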
